A study of Mus musculus with 4 samples.

Results

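Genes whose change between 0 h and 3 h of lipopolysaccharide (LPS) differed between wild-type macrophages and macrophages lacking Batf2 were collected from 4 RNA-seq libraries. The quantity was the double difference of log2(FPKM + 1): the change from 0 h to 3 h in the knockout (KO), less the same change in wild type (WT). FPKM is a read density per length of transcript and per number of reads mapped. All 11126 genes that had a valid estimate in the 4 libraries and an FPKM of at least 1 in 1 or more of them were included, out of 24117 gene symbols in the files. A gene was called when its double difference was at least 1 in size (a 2-fold unequal response of FPKM + 1) and the interval propagated from the deposited 95% limits excluded 0. By this rule 218 genes (1.96% of those tested) were called, 83 with a double difference above 0 (0.746%) and 135 with one below 0 (1.21%). These calls are named higher and lower below. The words then give the sign of the double difference and not the level of the gene in KO. A gene called lower can be above WT in KO at 0 h.

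Macrophages were derived from marrow of the C57BL/6 strain by growing it for 6 days with GM-CSF at 10 ng/ml and keeping the adherent cells. WT cultures were Batf2+/+ and KO cultures Batf2-/-. Every culture, per the labels, had 4 h of interferon-gamma at 10 ng/ml and then LPS at 100 ng/ml for 0 h or 3 h. Each genotype had 1 library at each time, so no test or standard error could be computed, and a response of a genotype cannot be told apart from a peculiarity of 1 of its libraries. Intervals given here hold only the error of counting and assigning reads within a library. How far cultures vary is not in them. The labels give neither the deleted part of Batf2 nor the number of animals behind a culture.

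LPS is a component of the outer membrane of Gram-negative bacteria. It is bound by CD14 and sensed by Toll-like receptor 4, and macrophages answer within hours by transcribing cytokines, chemokines and interferon-stimulated genes. Interferon-gamma primes these cells and raises MHC class II, immune GTPases and Batf2 itself. BATF2 is a basic leucine zipper protein of the AP-1 superfamily that can act with interferon regulatory factors. The question behind a double difference is which genes answered to a different extent when Batf2 was absent, as opposed to genes that differed between the genotypes by the same amount at both times.

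The estimated depth was 20.2 to 30.7 M reads (megareads) per library, lowest for WT at 3 h and highest for KO at 3 h. Macrophage markers had a summed FPKM of 23243 at 0 h and 17518 at 3 h in WT and of 25384 and 16557 in KO, and their median double difference was 0.00. Lyz2 made up most of each sum, with 21464 and 16015 FPKM in WT and 23092 and 14415 in KO. Markers of T, B and NK cells stayed under 1 FPKM but for Nkg7, and no erythroid marker reached 1 FPKM. The immune GTPases that interferon-gamma induces had a median WT response of 5.11 on the log2(FPKM + 1) scale, with Gbp2 at 49.8 FPKM at 0 h and 2688 at 3 h. Iigp1, another of them, had 0.12 FPKM at 0 h and 263.3 at 3 h in WT, although the labels give both times the same interferon-gamma treatment. Changes between 0 h and 3 h, called the LPS response for short, are not assigned to LPS alone here. The part of each treatment in them was not tested.

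Most genes responded alike in the genotypes. The median response was -0.53 in WT and -0.63 in KO, and the double difference had a median of -0.08, with the middle 50% of genes between -0.23 and 0.08. It was above 0 for 4067 genes and below 0 for 7059, and 90% of genes lay between -0.57 and 0.40. Across the 10889 genes listed at 0 in no library, the KO response followed the WT response with a Pearson r of 0.96 and a Spearman rho of 0.92. These are descriptions across genes, which are not independent replicates. Each response comes from its own pair of libraries, and all 4 libraries were made from the same kind of culture and share gene lengths and the read assignment. The difference between genotypes at 3 h followed that at 0 h with r of 0.38 and rho of 0.27 across the same genes. The 2 pairs of correlations cannot be compared directly, because genotype differences were spread less widely. Over all 11126 genes the middle 50% lay between -0.11 and 0.11 for KO minus WT at 0 h. For the WT response it lay between -0.96 and -0.07. The same size and interval rule was applied to KO minus WT at each time. Among the 10889 genes, 127 passed it as higher in KO at 0 h and 51 at 3 h, and 19 at both times, which is 15% of the first list and 37.3% of the second. Lower genes numbered 29 at 0 h and 52 at 3 h, with 6 at both times (20.7% and 11.5%). Over all 11126 genes the same calls came to 1.29% (higher at 0 h), 0.647% (higher at 3 h), 0.395% (lower at 0 h) and 0.638% (lower at 3 h).

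**Figure D1:**
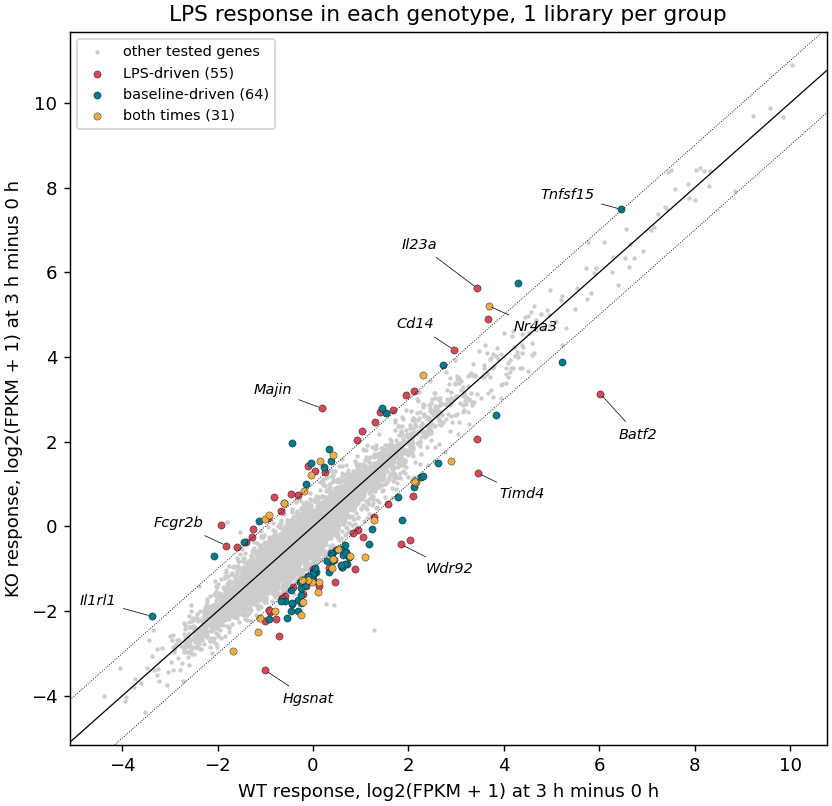
LPS response of each gene in WT (horizontal axis) and in KO (vertical axis), both as log2(FPKM + 1) at 3 h minus 0 h, for the 10889 genes listed at 0 in no library. Each point is 1 gene, the solid line marks equal responses and the dotted lines a double difference of 1 in size. The 150 called genes lie outside the dotted lines, Il23a above and Batf2, Timd4 and Hgsnat below.

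A double difference can arise at 0 h, at 3 h or at both. Called genes were therefore divided by which time carried the difference between KO and WT. A call was named LPS-driven when the difference at 3 h was at least 2 times that at 0 h, baseline-driven when the difference at 0 h was at least 2 times that at 3 h, and both times otherwise. These names describe arithmetic and not mechanism. Genes listed at 0 in any library were kept apart, since a 0 in these tables can be a failed estimate. LPS-driven genes numbered 55 (0.494% of those tested), of which 26 were higher (0.234%) and 29 lower (0.261%), Batf2 among the lower ones. Baseline-driven genes numbered 64 (0.575%), 15 higher (0.135%) and 49 lower (0.44%). The difference lay at both times for 31 genes (0.279%), 9 higher (0.0809%) and 22 lower (0.198%). In 29 of the 31 KO was above WT at one time and below it at the other. The remaining 68 (0.611%) were listed at 0 in a library, 33 higher (0.297%) and 35 lower (0.315%).

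**Figure D2:**
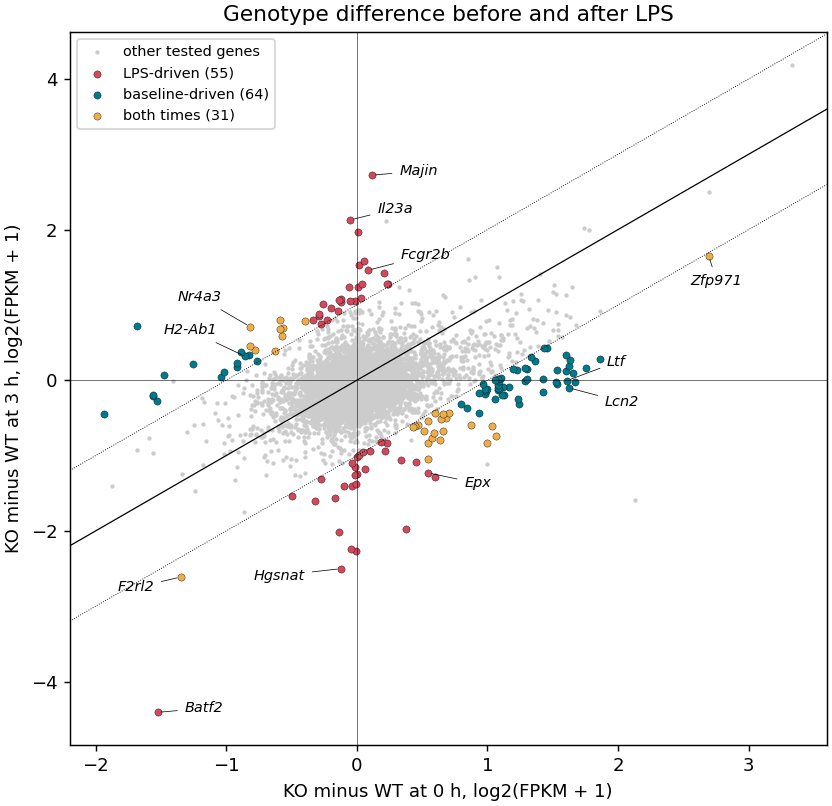
KO minus WT at 0 h (horizontal axis) against KO minus WT at 3 h (vertical axis), both on the log2(FPKM + 1) scale, for the 10889 genes listed at 0 in no library. Each point is 1 gene, coloured by class, with the solid line at equal differences and the dotted lines at a double difference of 1 in size. LPS-driven genes lie along the vertical axis, and the 49 baseline-driven genes that were lower lie to the right, near 0 on the vertical axis.

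Calls were more frequent among induced genes than among the others. Of 163 genes with an average response of at least 3 in the genotypes, 6.13% were called, against 4.36% of the 619 genes between 1 and 3 and 1.15% of the 7447 genes between -1 and 1. Among the 2637 genes between -1 and -3 the share was 1.02%, and none of the 23 genes at -3 or less was called. By level, 1.26% were called at a highest FPKM of 1 to 5, 1.11% at 5 to 50 and 2.48% at 50 or more. Among the 150 called genes listed at 0 nowhere, 45 passed the same size and interval rule as lower at 3 h in KO and not in WT. A further 28 were induced past it in both genotypes, 14 in KO alone and 13 in WT alone. WT alone had 9 that were lower at 3 h, both genotypes had 6, and the other 35 passed in neither genotype. Over all genes tested, 7.36% were higher and 22.6% lower at 3 h in WT, and 7.75% and 27.6% in KO. The threshold cut a continuous range, with 68 genes at a double difference of 0.9 to 1 in size and 36 at 1 to 1.1. A size of 1 or more with an interval that included 0 was found for 63 genes, 6 of them listed at 0 in no library. With 5 added to the FPKM in place of 1, 24 of the 67 calls among the genes named by rule ended: Csf3, Tnfsf15, Ltb, Ocel1, Slc6a12, Fos, Epx, Dnase1l3, Cyp4f18, B3gnt3, Gdf15, F7, Dpys, Gvin1, Il1r1, Il4i1, Gata2, Olfr110, Olfr111, Arg1, F2rl2, Mtus1, Chil4 and Tmem267. Their values then ran from 0.36 (Gata2) to 0.97 (Gvin1) for the higher and from -0.09 (F2rl2) to -0.95 (Epx) for the lower genes.

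Batf2 itself had the lowest value of all called genes listed at 0 nowhere. It lies on chr19:6164458-6172475 (GRCm38/mm10, forward strand). Its FPKM was 2.63 at 0 h and 234.3 at 3 h in WT, and 0.26 and 10.1 in KO, a double difference of -2.88 (interval -3.30 to -2.51). Reads at the targeted locus were thus few in KO but still increased between 0 h and 3 h. Majin, a meiotic telomere attachment gene, begins 11935 bases beyond the end of Batf2 (chr19:6184410-6224219, forward strand) and went the other way. It stood at 0.054 and 0.20 FPKM in WT at 0 h and 3 h and at 0.14 and 6.91 in KO, a double difference of 2.61 (2.33 to 2.89). Only the KO library at 3 h held an appreciable level. Within 100 kb of Batf2, the other tested genes had double differences from -0.49 (Ppp2r5b) to 0.16 (Vps51) and none was called.

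Among cytokines, Il23a had the highest double difference. It encodes p19, which joins the p40 subunit to form interleukin-23, a cytokine that sustains IL-17-producing T cells, and lies on chr10:128296140-128298084 (reverse strand). FPKM of Il23a was 0.066 in WT and 0.029 in KO at 0 h, and 10.6 in WT and 49.8 in KO at 3 h. The genotypes were near 0 before LPS, both were higher at 3 h and KO was then above WT, with a double difference of 2.18 (1.93 to 2.45). Il12b, the shared p40 subunit, followed at 0.767 and 0.519 FPKM at 0 h and 1867 and 2916 at 3 h (WT, then KO), a double difference of 0.86 (0.56 to 1.15) that stayed under the size rule. The partner subunits showed less: 0.39 for Ebi3, 0.10 for Il12a, the p35 of interleukin-12 (-0.34 with a pseudocount of 0.1), and -0.27 for Il27. Of the 5 IL-12 family subunits 1 was called higher, against 0.746% of all genes. The list median was 0.39 against -0.08 for all genes.

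Of 17 proinflammatory cytokines tested, 2 were called higher and 1 lower (0.746% and 1.21% of all genes), with a median of 0.46, and 13 lay above the median of all genes. Induced genes in general lay above that median more often than others, 59.5% of those with an average response of at least 3 and 64.6% of those between 1 and 3. Csf3, which encodes G-CSF, a growth factor of granulocytes, stood at 0.13 and 2.01 FPKM in WT (0 h, then 3 h) and 0.087 and 6.11 in KO, a double difference of 1.30 (0.89 to 1.73). Tnfsf15, the T cell costimulator TL1A, had 5.96 and 614.2 FPKM in WT and 3.10 and 734.8 in KO, a double difference of 1.02 (0.87 to 1.18) that came mainly from the lower level at 0 h. Ltb, lymphotoxin beta, went the other way with 2.62 and 7.85 in WT and 4.90 and 5.55 in KO (-1.14). The abundant cytokines of the LPS response were not called. Tnf had 39.9 FPKM at 0 h and 2492 at 3 h in WT against 40.0 and 2815 in KO, a double difference of 0.17. The value was 0.40 for Il1b and 0.48 for Il6.

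Other well-known genes of the LPS and interferon response stayed under the size rule. Double differences were 0.24 for Nos2, the inducible nitric oxide synthase, -0.17 for Cxcl10, 0.07 for Ccl5 and 0.17 for Ifnb1, which was listed at 0 in KO at 0 h. Irf1 (-0.20) and Irf8 (-0.30), interferon regulatory factors, were slightly lower. None of the 11 CXC chemokines was called, and of 13 CC and CX3C chemokines Ccl22 alone was, against 0.746% of all genes called higher. Cxcl1 (0.91, interval 0.51 to 1.33) and Cxcl3 (-0.95, interval -1.21 to -0.71) missed the size rule narrowly, in opposite directions. Ccl22 had 302.3 and 881.4 FPKM in WT and 149.0 and 954.5 in KO (1.13, baseline-driven). The 23 type I interferon-stimulated genes included no call. Of them 21 lay above the median of all genes, to be read against the 59.5% and 64.6% of induced genes, and their median was 0.22. Rsad2, which encodes the antiviral enzyme viperin, came closest among them, with 1.58 FPKM at 0 h and 467.7 at 3 h in WT and 1.59 and 890.0 in KO (0.92, interval 0.70 to 1.14).

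Cd14 and Fcgr2b, both receptors, were among the LPS-driven genes that were higher. Cd14, the LPS co-receptor, had 36.9 FPKM at 0 h and 294.4 at 3 h in WT and 33.9 and 624.6 in KO, a double difference of 1.20 (1.05 to 1.35). Levels matched at 0 h and the KO library was the higher one at 3 h. It was the called member of 19 genes of the Toll-like receptor pathway (0.746% of all genes were called higher), whose median was 0.04. Fcgr2b, the inhibitory Fc receptor for IgG (chr1:170960559-170976071, reverse strand), had 267.4 FPKM at 0 h and 74.8 at 3 h in WT but 283.9 and 207.6 in KO, a double difference of 1.37 (1.26 to 1.49). Here the WT library at 3 h was the low one. The activating receptors of the same family were not called: Fcgr1 had a value of -0.01 and Fcgr3 of -0.03, and the signalling chain Fcer1g one of -0.27. Fcgr4 missed the size rule narrowly, with 6.00 and 46.4 FPKM in WT and 9.73 and 35.4 in KO.

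Other LPS-driven genes that were higher did not share a list. Adi1, an enzyme of methionine salvage, had 12.1 FPKM in WT and 12.2 in KO at 0 h, and 2.44 in WT and 12.5 in KO at 3 h, a double difference of 1.97. Rps29, a protein of the small ribosomal subunit, was the reverse case, with 228.6 and 212.9 FPKM in WT and 238.1 and 639.6 in KO (1.52). It was the called member of 16 ribosomal protein genes (0.746% of all genes were called higher), whose median was -0.12. In each of these genes 3 libraries were alike and 1 stood apart. Htra4, a serine protease, had 0.72 and 20.8 FPKM in WT and 0.76 and 51.8 in KO (1.24), and Rdh11, a retinal reductase, had 16.7 and 17.2 in WT and 13.8 and 35.8 in KO (1.28). The values were 1.22 for Ocel1 and 1.20 for Slc6a12, a betaine and GABA transporter.

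**Figure D3:**
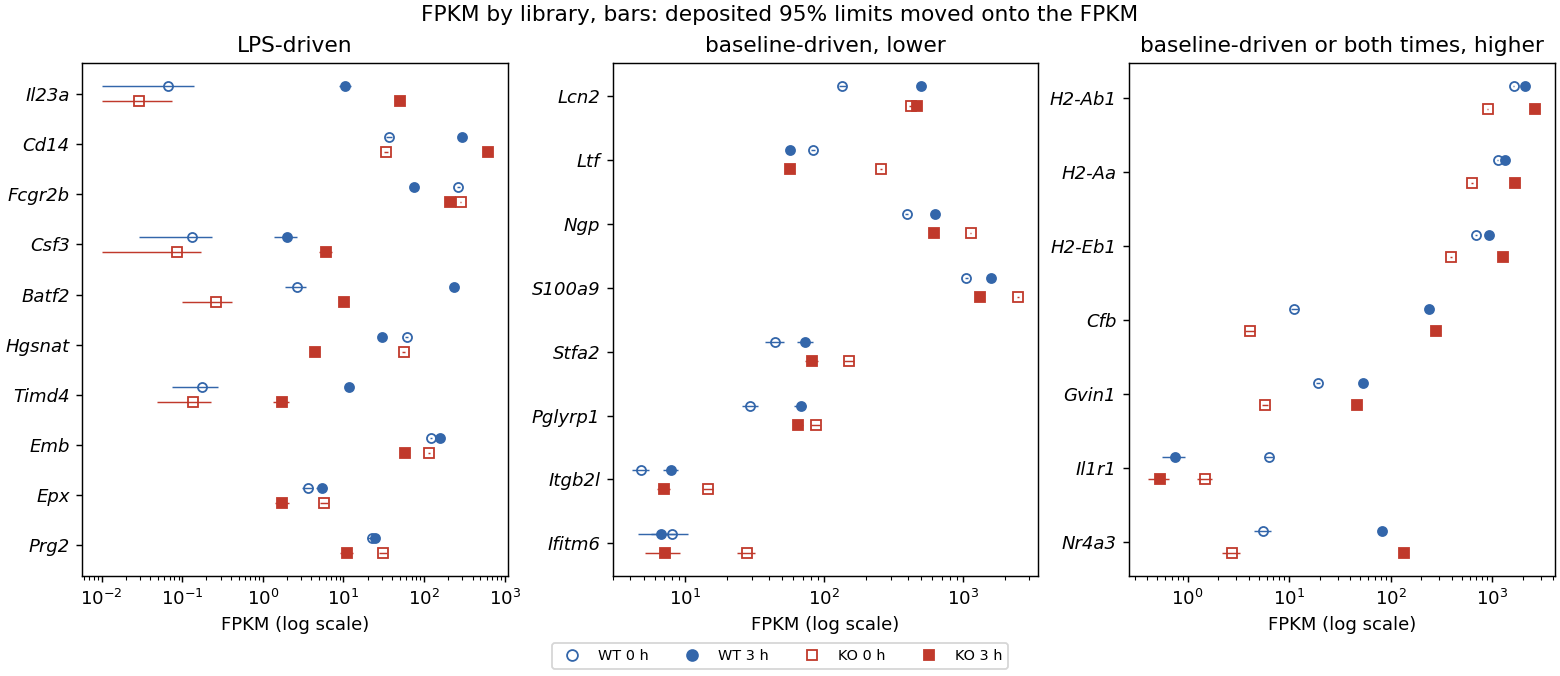
FPKM of selected called genes in the 4 libraries (horizontal log axis), with circles for WT, squares for KO, open symbols for 0 h and filled ones for 3 h. Bars are the deposited 95% limits moved onto the FPKM, and lower limits under 0.01 end at 0.01. Il23a and Cd14 separate the genotypes at 3 h, Lcn2 and Ltf at 0 h.

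Of the LPS-driven genes that were lower, Hgsnat led after Batf2. It encodes a lysosomal acetyltransferase needed to break down heparan sulfate and lies on chr8:25944459-25976744 (reverse strand). FPKM was 60.9 at 0 h and 29.7 at 3 h in WT and 55.9 and 4.42 in KO, a double difference of -2.38 (-2.58 to -2.19). The low library was KO at 3 h. Of 17 lysosomal genes, with a median of -0.14, no other was called, against 1.21% of all genes called lower. Asah1, the lysosomal acid ceramidase, was not on that list and had 161.6 and 120.8 FPKM in WT and 167.3 and 61.9 in KO, just past the size rule as lower.

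Timd4 and Wdr92 were high mainly in WT at 3 h. Timd4, a receptor for phosphatidylserine on dying cells, had 0.17 and 11.9 FPKM in WT and 0.14 and 1.73 in KO (-2.19, interval -2.51 to -1.88). Wdr92, a WD-repeat protein, had 3.70 and 15.8 in WT and 3.68 and 2.50 in KO (-2.26). Dnase1l3, a secreted nuclease, was induced less in KO, with 0.046 and 10.3 FPKM in WT against 0.019 and 3.26 (-1.37). For all 3, the levels of the genotypes were close at 0 h.

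For several other LPS-driven lower genes, KO at 3 h was the lowest of the 4 libraries. Emb, the membrane glycoprotein embigin, had 122.9 and 156.0 FPKM in WT and 114.8 and 58.1 in KO (-1.31). Fos, the AP-1 subunit, had 11.5 and 6.27 in WT and 14.8 and 2.50 in KO (-1.39). No other of the 17 tested BATF, AP-1 and IRF factors besides Batf2 was called, against 1.96% of all genes. Cyp4f18, a P450 enzyme that oxidises leukotriene B4, had 10.8 and 6.26 in WT and 9.73 and 0.79 in KO (-1.88). The values were -1.39 for B3gnt3, a glycosyltransferase, -1.13 for Gdf15, a stress-induced cytokine, and -1.03 for F7, coagulation factor VII.

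Epx and Prg2, granule genes of eosinophils, were in this group too. Epx, eosinophil peroxidase, had 3.66 FPKM at 0 h and 5.45 at 3 h in WT and 5.81 and 1.75 in KO, a double difference of -1.77 (-2.13 to -1.43). Prg2, the major basic protein, had 22.3 and 24.6 in WT and 30.9 and 11.1 in KO (-1.53). KO was above WT at 0 h and below it at 3 h for each. Ear6, an eosinophil-associated ribonuclease of the both-times class, did likewise with 9.60 and 10.5 in WT and 15.5 and 5.66 in KO (-1.43). Of 8 mast cell, basophil and eosinophil markers tested, 2 were called lower and 2 higher, Gata2 (1.05, but 0.36 with a pseudocount of 5) and Il1rl1 (1.26). Over all genes, 1.21% were called lower and 0.746% higher. Summed FPKM of the list was 51.8 and 46.3 in WT and 54.5 and 36.8 in KO. In bulk samples, fewer cells of a type and less RNA per cell cannot be told apart.

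The baseline-driven genes that were lower included neutrophil granule genes. Neutrophil granules store antimicrobial and iron-binding proteins that are made by maturing precursors in the marrow. Of 13 neutrophil and precursor markers tested, 9 were called lower and none higher, all 9 baseline-driven, against 1.21% of all genes called lower. Their median double difference was -1.11, against -0.08 for all genes, with a median KO minus WT difference of 1.06 at 0 h and of -0.00 at 3 h. Their summed FPKM was 3744 at 0 h and 5815 at 3 h in WT, and 9225 and 5579 in KO. The KO library at 0 h was the high one, and the libraries at 3 h were alike. Cebpe, a transcription factor of granulocyte precursors (-0.93), and Elane, neutrophil elastase (-0.91), missed the size rule narrowly, whereas Csf3r, the G-CSF receptor, had a value of -0.01 and Mmp8, neutrophil collagenase, one of 0.57.

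Lcn2, which binds bacterial siderophores, lies on chr2:32384637-32387739 (reverse strand) and led the class. It had 135.1 FPKM at 0 h and 498.1 at 3 h in WT and 417.9 and 464.5 in KO, a double difference of -1.72 (-1.83 to -1.62). KO at 0 h was already near the level that both genotypes had at 3 h. Ltf, the iron-binding protein lactoferrin, had 83.2 and 56.7 in WT and 256.1 and 56.5 in KO (-1.61), and was thus high in KO at 0 h alone. Ngp, a neutrophil granule protein related to cystatins, had 391.9 and 624.3 in WT and 1129 and 613.2 in KO (-1.55). S100a9, which with S100a8 forms calprotectin, had 1053 and 1575 in WT and 2481 and 1324 in KO (-1.49). Ngp and S100a9 were therefore higher at 3 h than at 0 h in WT and lower in KO.

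Because these genes moved together, the 250 bases before their RefSeq start (GRCm38.p6) were searched for the letters TTGCNNAA, a pattern to which C/EBP factors can bind, on either strand. C/EBP factors direct granule gene transcription in myeloid precursors. Capitals mark the matches in Ngp (chr9:110419558-110419807, forward strand), Lcn2 (chr2:32387740-32387989, reverse strand) and Ltf (chr9:111019042-111019291, forward strand), written 5′ to 3′ on the strand of the gene.
Ngp: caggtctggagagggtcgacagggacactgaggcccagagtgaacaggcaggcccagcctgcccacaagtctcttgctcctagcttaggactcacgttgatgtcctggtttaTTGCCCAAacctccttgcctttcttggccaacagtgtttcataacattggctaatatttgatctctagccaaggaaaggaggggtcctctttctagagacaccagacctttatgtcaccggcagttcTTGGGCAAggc
Lcn2: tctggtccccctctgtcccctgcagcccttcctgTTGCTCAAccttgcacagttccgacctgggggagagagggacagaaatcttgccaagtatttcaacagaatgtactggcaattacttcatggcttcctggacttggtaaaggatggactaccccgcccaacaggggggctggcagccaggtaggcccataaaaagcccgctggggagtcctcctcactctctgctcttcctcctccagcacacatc
Ltf: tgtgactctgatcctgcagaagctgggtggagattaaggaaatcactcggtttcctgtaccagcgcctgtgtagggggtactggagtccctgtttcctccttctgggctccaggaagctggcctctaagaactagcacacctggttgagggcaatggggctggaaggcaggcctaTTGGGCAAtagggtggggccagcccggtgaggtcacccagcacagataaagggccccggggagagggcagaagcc
The matches begin 138 and 11 bases before the start of Ngp, 216 before that of Lcn2 and 75 before that of Ltf. Of 40 baseline-driven lower genes with a sequence in the table, 12 (30.0%) held the pattern, against 9.41% of the 8851 tested genes and 10.8% of all 27025 genes with a sequence. The share was 29.4% of 17 LPS-driven higher genes and 4.76% of 21 LPS-driven lower ones, and 2 of 8 baseline-driven higher genes held it. The AP-1-type letters TGANTCA were searched in the same windows. They were held by 3 of the 17 LPS-driven higher genes (17.6%) and 0 of the 21 lower ones. For baseline-driven genes the share was 5.0% of the 40 lower and 0 of the 8 higher, against 5.74% of tested genes. The baseline-driven lower genes included stefins that are near-identical copies, and copies with a sequence counted separately in these shares. Ngp, Lcn2 and Ltf were picked for display, and which other neutrophil markers held or lacked the pattern is not given here. A match is a description of the letters and not evidence of binding.

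Further genes of the class were also highest in KO at 0 h. Itgb2l, a leukocyte integrin beta chain, had 4.82 and 7.90 FPKM in WT and 14.6 and 6.99 in KO (-1.58). Pglyrp1, a peptidoglycan recognition protein, had 29.4 and 67.5 in WT and 86.7 and 65.2 in KO (-1.58). Ifitm6 had 8.07 and 6.64 in WT and 27.6 and 7.16 in KO, and Ceacam10 had 6.55 and 4.52 against 16.8 and 3.44, a double difference of -1.56 for each. In all 4 the difference between the genotypes was smaller at 3 h, as the class requires. Cd177, a neutrophil surface glycoprotein (-1.43), and Padi4, which citrullinates histones (-1.22), were also called. Dpys, an enzyme of pyrimidine breakdown, had 0.93 and 1.95 in WT and 6.02 and 2.59 in KO (-1.58).

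Stefins, small cytosolic inhibitors of cysteine proteases, formed a physical cluster. Of 7 stefin and chitinase-like genes tested, 5 were called lower, against 1.21% of all genes, and the median was -1.03. Stfa2 had 44.3 FPKM at 0 h and 72.8 at 3 h in WT and 151.4 and 81.5 in KO (-1.59, interval -1.95 to -1.24), Stfa2l1 had 43.4 and 73.7 against 133.9 and 80.5 (-1.48), and Stfa3 had 18.8 and 24.0 against 52.2 and 24.4 (-1.40). The KO library at 0 h was the highest one for each. On chromosome 16, 8 called genes of the stefin family lay between 36156811 and 36455392, 7 of them baseline-driven. These genes are near-identical copies, so that the deposited values of single members are uncertain. Chil1, a chitinase-like gene, behaved otherwise, with 7.81 and 47.3 FPKM in WT and 28.5 and 194.8 in KO, higher in KO at both times by a like amount (0.28).

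Genes of MHC class II presentation had the highest median of the lists with at least 3 tested members. Class II molecules present peptides to CD4+ T cells, and their genes are transcribed together under the coactivator CIITA. Of 9 tested, 3 were called higher, against 0.746% of all genes, and none lower. H2-Ab1 and H2-Aa were baseline-driven and H2-Eb1 differed at both times. The median was 0.92 and 8 of 9 lay above the median of all genes. The median KO minus WT difference was -0.70 at 0 h and 0.21 at 3 h. H2-Ab1, a beta chain, had 1635 FPKM at 0 h and 2111 at 3 h in WT and 901.4 and 2636 in KO, a double difference of 1.18 (1.14 to 1.22). H2-Aa, the matching alpha chain, had 1135 and 1341 in WT and 639.8 and 1698 in KO (1.17), and H2-Eb1 had 694.2 and 932.4 in WT and 393.6 and 1280.2 in KO (1.27). For all 3, KO was the lowest library at 0 h and the highest at 3 h. Cd74, the invariant chain, had 6209 and 7081 in WT and 3810.0 and 8213 in KO, a double difference of 0.92 that passed the size rule, at 1.02, with the libraries rescaled. Ciita stood at 0.85, H2-Ob at 0.95, H2-DMb1 at 0.57, H2-DMa at 0.21 and H2-Oa at -0.12.

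Class II promoters are known for a Y box that contains an inverted CCAAT box, so the 250 bases before the RefSeq start were searched for CCAAT on either strand. Matches are in capitals in H2-Aa (chr17:34287824-34288073, reverse strand) and H2-Eb1 (chr17:34305617-34305866, forward strand).
H2-Aa: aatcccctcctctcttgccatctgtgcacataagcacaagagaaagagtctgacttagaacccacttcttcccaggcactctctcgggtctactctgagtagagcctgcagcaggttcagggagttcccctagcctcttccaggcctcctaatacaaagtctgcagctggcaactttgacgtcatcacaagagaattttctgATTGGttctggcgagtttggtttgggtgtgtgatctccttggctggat
H2-Eb1: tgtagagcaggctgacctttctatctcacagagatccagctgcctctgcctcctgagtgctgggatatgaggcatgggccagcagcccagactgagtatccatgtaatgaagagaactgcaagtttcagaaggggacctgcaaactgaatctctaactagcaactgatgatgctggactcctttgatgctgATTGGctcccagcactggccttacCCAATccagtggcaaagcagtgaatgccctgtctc
The inverted form begins 48 bases before the start of H2-Aa and 59 before that of H2-Eb1, which holds a forward copy at 35 as well. These 5 letters are common: 40.8% of the tested genes and 37.5% of all genes with a sequence held them in this window, and 37.5% of the 8 baseline-driven higher genes with a sequence did.

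Among the other higher baseline-driven genes, Cfb and Gvin1 started lower in KO and came near the WT level at 3 h. Cfb, complement factor B, had 11.3 FPKM at 0 h and 240.2 at 3 h in WT and 4.16 and 278.0 in KO, a double difference of 1.46 (1.28 to 1.64). Gvin1, a giant interferon-induced GTPase, had 19.1 and 53.8 in WT and 5.81 and 46.4 in KO (1.36). It was the called member of 14 such GTPases, against 0.746% of all genes called higher. Il1r1 and Il1rl1, neighbouring genes on chromosome 1 for the receptors of interleukin-1 and interleukin-33, differed in that they were lower at 3 h. Il1r1 had 6.34 and 0.75 FPKM in WT and 1.49 and 0.53 in KO (1.37), and Il1rl1 had 19.996 and 1.02 against 6.28 and 0.67 (1.26). In KO they started lower and decreased less.

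Among genes with a difference at both times, Nr4a3 had the highest value. This nuclear receptor of the immediate-early response had 5.56 FPKM at 0 h and 83.1 at 3 h in WT and 2.72 and 136.8 in KO, a double difference of 1.53 (1.20 to 1.85). H2-M2, a nonclassical MHC class I gene, had 75.4 and 379.2 in WT and 49.8 and 610.4 in KO (1.27). The olfactory receptor genes Olfr110 (1.39) and Olfr111 (1.26) lie within 50 kb beyond it on chromosome 17 and were called in the same class, with at most 9.53 FPKM. Slamf8, a receptor of activated myeloid cells, had 29.6 and 225.3 FPKM in WT and 44.6 and 131.8 in KO (-1.35). Its neighbour Vsig8, which begins at 172555938 on chromosome 1 while Slamf8 ends at 172590568, had 4.17 and 3.33 in WT and 9.34 and 1.43 in KO (-1.83). For each of this pair, KO was the higher genotype at 0 h and the lower one at 3 h.

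Arg1, arginase of alternatively activated macrophages, had 3.58 and 1.06 FPKM in WT and 6.25 and 0.29 in KO (-1.34). It was the called member of 12 alternative activation genes, against 1.21% of all genes called lower. F2rl2, a thrombin receptor, had 23.8 and 6.79 in WT and 8.72 and 0.27 in KO, and was lower in KO at both times. Its double difference was -1.26, but -0.09 with a pseudocount of 5. Mtus1, a microtubule-associated protein, had 6.70 and 5.69 in WT and 10.2 and 2.25 in KO (-1.59). Csta2, of the stefin cluster, had 9.28 and 10.1 against 20.1 and 6.25 (-1.65). For all but F2rl2, KO was above WT at 0 h and below it at 3 h.

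Genes listed at 0 cannot be given a fold. They numbered 68, 47 of them protein coding and 9 small RNAs, and 27 (KO at 0 h) to 36 (KO at 3 h) were at 0 in a given library. Ifi202b, a DNA-binding gene of the Ifi200 family (chr1:173962569-173982844, reverse strand), was listed at 0 at 0 h and had 0.029 FPKM at 3 h in WT, and had 0.021 and 100.5 in KO. A single library, KO at 3 h, held nearly all of its signal. The other 11 genes of the Ifi200 cluster had double differences from -0.70 (Ifi205) to 0.18 (Ifi214), none called. Il4i1, an amino acid oxidase, was listed at 0 in both genotypes at 0 h and had 27.8 FPKM in WT and 57.8 in KO at 3 h. Ppt1, a lysosomal thioesterase, had 44.0, 51.0 and 38.6 FPKM in 3 libraries and 0 in KO at 0 h. Capzb, an actin capping subunit, had 49.0 FPKM and then 0 in WT, and 0 and then 29.0 in KO. Atf5 was at 0 in KO at 3 h alone and Igfbp7 in WT at 0 h alone.

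**Figure D4:**
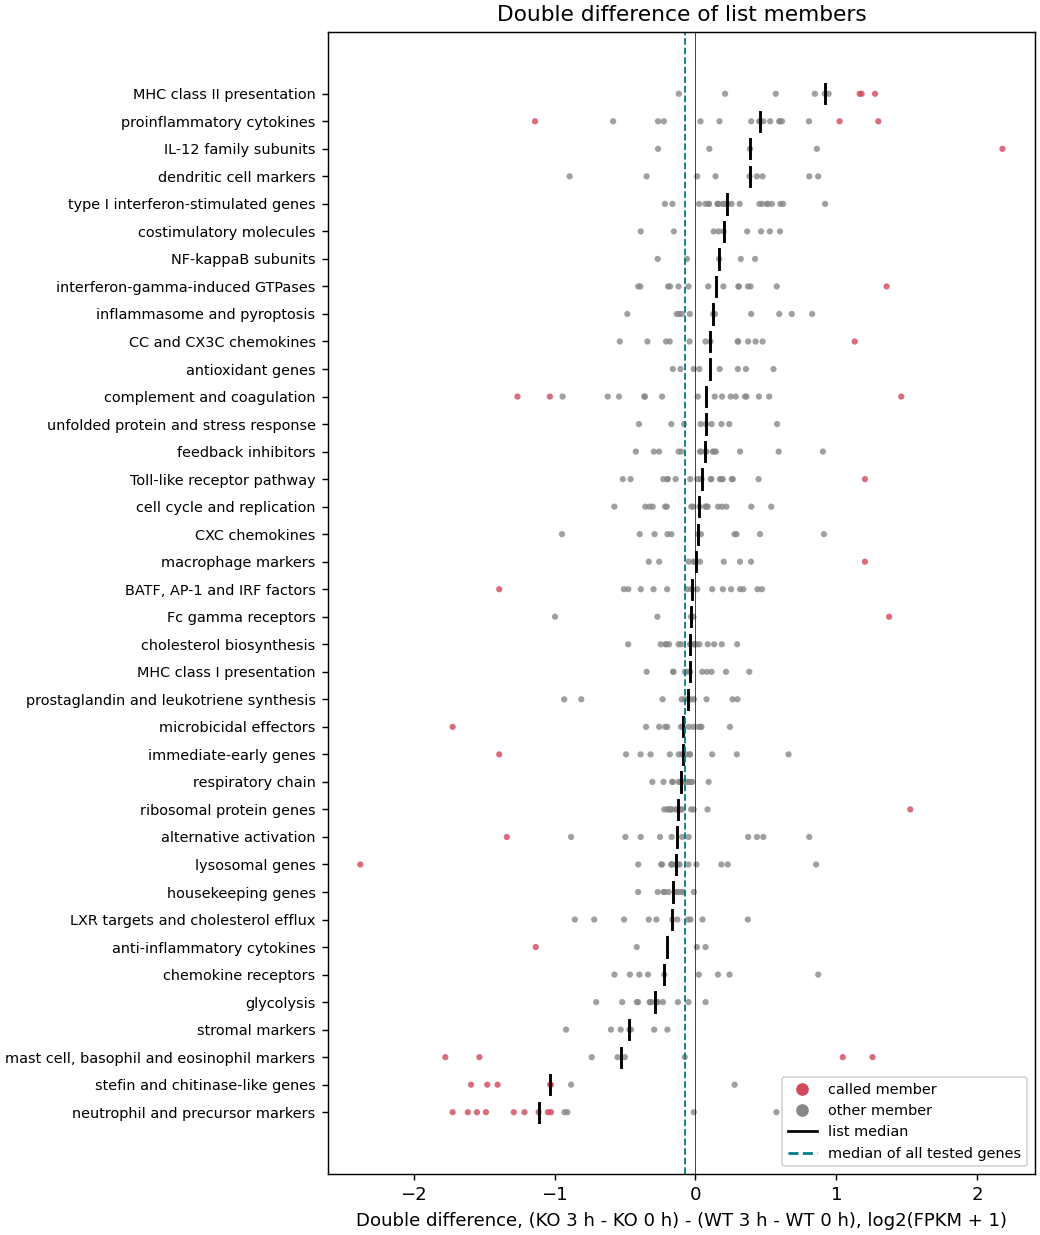
Double difference (horizontal axis, log2(FPKM + 1) scale) of the members of each gene list with at least 3 tested members, without Batf2. Points are genes, red where called, black bars are list medians and the dashed line is the median of all tested genes, -0.08. Neutrophil markers (median -1.11) and stefin and chitinase-like genes (-1.03) lie lowest and MHC class II genes (0.92) highest.

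Lists without a call were compared by their medians. All 7 stromal markers lay below the median of all genes, with a median of -0.47. Sparc, a matrix glycoprotein, had 11.4 FPKM at 0 h and 11.3 at 3 h in WT and 33.1 and 22.5 in KO (-0.53), and the summed FPKM of the list was 36.3 and 35.3 in WT and 83.2 and 56.3 in KO. With the highest entry of a symbol in place of the sum, the value of Sparc was 0.17. The KO libraries were the higher ones at both times. Of 15 glycolysis genes 13 lay below the median of all genes, with a median of -0.28 and Pkm, pyruvate kinase, at -0.23. This direction was not particular to glycolysis. Below the same median were 9 of 10 housekeeping genes (median -0.16) and 9 of 14 respiratory chain genes (-0.10). Genes with a highest FPKM of 50 or more, listed at 0 in no library, had a median of -0.10. The 9 dendritic cell markers had a median of 0.38, and a summed FPKM of 5048 and 3410 in WT and 3194 and 2925 in KO. Most of that sum was Ccl17, with 4348 FPKM in WT and 2553 in KO at 0 h. Their median KO minus WT difference at 0 h was -0.60, but members varied. Itgax was alike in the genotypes (-0.02) and Xcr1 was higher in KO (0.53). Stromal and neutrophil markers, and the dendritic cell markers in their median, thus differed between the genotypes at 0 h. Baseline-driven genes differ at 0 h by definition, and 9 of the neutrophil markers were themselves in that class. No stromal marker was called, and their median KO minus WT difference was 0.94 at 0 h and 0.48 at 3 h. The part of these cell types in the baseline-driven calls was not tested.

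Called genes were spread over the chromosomes unevenly. Chromosome 8 held 11 of the 55 LPS-driven genes (20%) and 5.46% of the tested genes, and chromosome 12 held 7 (12.7%) with 3.38% of the tested genes. On chromosome 8, 6 of them lay between 70629394 and 72009626 (GRCm38): Gdf15, Haus8, B3gnt3 and Cyp4f18 were lower in KO, and Ocel1 and Zfp961 higher. The ends of this stretch were set by the called genes themselves. The share of tested genes that lay in it is not given here, so the count has nothing to be read against. Haus8, a microtubule nucleation factor, had 57.5 and 28.3 FPKM in WT and 56.9 and 11.3 in KO (-1.24), so that the stretch held genes of different function and both directions. Chromosome 16 held 10 of the 64 baseline-driven genes (15.6%) and 3.25% of the tested genes, mostly the stefins.

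**Figure D5:**
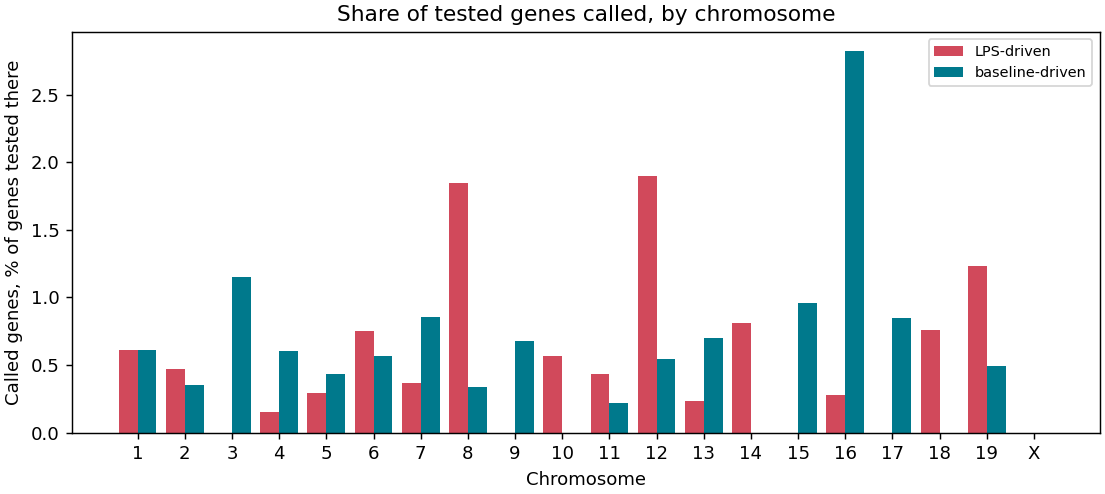
Called genes as a percentage of the tested genes on each chromosome (vertical axis), for LPS-driven and baseline-driven genes listed at 0 in no library. Bars rest on 0 to 11 called genes each, and the tallest belong to chromosomes 8 and 12 for LPS-driven and 16 for baseline-driven genes.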

How the data were processed

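The authors deposited FPKM per RefSeq accession for 4 strand-specific, single-read libraries, with lower and upper confidence limits (95% by Cufflinks' convention) and a status per entry, per the file headers. Per the submitters' processing notes, TopHat2, Bowtie, SAMtools, Cufflinks and mm9 were used, without versions. Loci fit GRCm38, however: 96% of entries lay inside the GRCm38 RefSeq gene of their name, so coordinates are given in that build. Each library held 33841 entries. FPKM was summed per symbol (5249 symbols had several entries), 272 genes with a status other than OK were left out, and limits were recentred on the FPKM at their relative width, because 1552 to 2076 entries per library lay outside their own limits. Il12b was among 57 entries named by position. Depth was estimated from entries whose limits mark 1 read on transcripts over 2000 bases.

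Differences were taken on log2(FPKM + 1) with pandas 2.3.3 and numpy 2.4.6. The method was tested on simulated data that held counting error only, with the same length for all genes. No variation between cultures and no failed estimates were simulated, so that test says nothing about either. The pseudocount of 1 understates the change of low genes. Named genes were Batf2, the 10 highest and lowest LPS-driven, 8 baseline-driven and 5 both-times genes at an FPKM of at least 5, 6 genes listed at 0, up to 4 called members of each of 40 lists (or else 2), and 15 key genes. A gene that this rule names is not reported here. Other genes named were chosen after their values were seen. The classes, lists and rules were chosen with earlier results of these data known. Alternatives changed the pseudocount, the scaling, the filter, the treatment of entries, the interval, the threshold and the class ratio.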

Additional observations from a re-analysis of the deposited data

Results flagged for a closer look

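Called genes that reached 5 FPKM and were nowhere listed at 0 were searched for opposite responses, leaving out small RNAs, pseudogenes and gene models without a proper name. For 12 of these genes the response was at least 0.5 in size in each genotype, with intervals that excluded 0, but of opposite sign. This difference between the genotypes was not tested, since each group holds 1 library. The minimum of 0.5 was chosen after the data were seen, because none of these called genes had opposite responses of at least 1 in each genotype.

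In 10 of them WT was higher at 3 h than at 0 h and KO was lower. The double differences were -1.59 for Stfa2, -1.58 for Itgb2l, -1.58 for Dpys, -1.55 for Ngp, -1.49 for S100a9 and -1.48 for Stfa2l1. They were -1.30 for Trem3, a receptor of the TREM family, -1.29 for S100a8, -1.27 for the stefin-like Cstdc6 and -1.11 for Camp, the antimicrobial cathelicidin. S100a8 had 1838 FPKM at 0 h and 2833 at 3 h in WT and 4545 and 2865 in KO. Camp had 86.1 and 128.3 in WT and 150.6 and 103.1 in KO. These genes share the high KO library at 0 h, and their levels at 3 h were near each other in the genotypes.

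In the other two the direction was the reverse. E2f8, a repressor of the E2F family that acts in the cell cycle, had 16.4 and 10.4 FPKM in WT and 14.96 and 22.4 in KO, a double difference of 1.16. Arhgap26, a GTPase-activating protein, had 6.46 and 3.87 in WT and 4.00 and 6.35 in KO, a double difference of 1.17.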

How the results depend on the processing

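The main counts of calls were 83 higher, 135 lower, 55 LPS-driven, 64 baseline-driven, 31 at both times and 68 listed at 0. In the same order, a pseudocount of 0.1 gave 156, 295, 144, 142 and 83 for the first 5, and a pseudocount of 5 gave 34, 48, 17, 29, 8 and 28. Taking the highest entry of a symbol in place of the sum gave 212, 286, 98, 109, 70 and 221. A threshold of 1.5 gave 35, 47, 14, 12 and 5 for the first 5. An FPKM of at least 5 left 19 at both times and 39 listed at 0, and dropping the interval condition raised the latter to 125. The fewer calls at the higher threshold and filter follow from their construction, and the cause of the other shifts was not tested. All other alternatives stayed within 1.5 times of these counts.

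Rescaling the libraries by the median ratio gave 101 higher and 111 lower calls, kept 189 of the 218 and moved the share of higher calls from 38.1% to 47.6%, with the median of all genes going from -0.08 to 0.01. It ended the calls of Chil4 and F7 and added Cd74 and Rsad2. Using the midpoint of the deposited limits in place of FPKM, an alternative chosen after seeing the data, kept 201 calls. None of the 67 calls among the 118 named genes changed sign in the alternatives run, but 9 named genes without a call did: B2m, Alox5ap, Cox4i1, Nfkbia and Nkg7 with rescaling, Hspa5, Nfkb2 and Sparc with the highest entry, and Il12a with a pseudocount of 0.1. A pseudocount of 5 ended 24 of the 67 calls, among them Csf3, Fos, Epx, Arg1, Gata2 and F2rl2, and one of 0.1 added Il12b (1.13) and Ptgs2 (-1.44). The highest-entry setting ended the call of Tmem267. No paired analysis was possible because each group holds 1 library and the labels carry no replicate numbers. Depth limits genes near 1 FPKM most: the median interval width was 0.67 at 1 to 5 FPKM and 0.27 at 50 or more.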

Other observations

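Ly6c2, Ly6c1, Marco, Ch25h and Upp1 were also among the baseline-driven lower calls. Ly6c2, a surface antigen of inflammatory monocytes, had 61.6 FPKM at 0 h and 307.3 at 3 h in WT and 122.3 and 282.9 in KO, a double difference of -1.10, and Ly6c1 had one of -1.11. These are near-identical neighbours, so that reads may be split between them. Marco, a scavenger receptor for bacteria, had 32.5 and 143.8 in WT and 69.9 and 134.3 in KO (-1.18). Ch25h, the enzyme that makes the antiviral oxysterol 25-hydroxycholesterol, had 2.77 and 139.1 in WT and 7.23 and 120.8 in KO (-1.33), and Upp1, uridine phosphorylase, had 11.9 and 183.8 against 26.5 and 170.1 (-1.20). In all of these the induction was smaller in KO from a higher start, which the class of baseline-driven lower calls requires. The levels of the genotypes at 3 h were near each other.

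Some low genes were LPS-driven. Saa1, an acute-phase protein, had 0.095 and 3.76 FPKM in WT and 0.083 and 8.90 in KO (1.07). Il2ra, the alpha chain of the interleukin-2 receptor, had 1.83 and 2.39 in WT and 1.41 and 4.93 in KO (1.04). Plagl1, a zinc finger factor, had 0.11 and 3.58 in WT and 0.44 and 0.17 in KO (-2.35), and was thus induced in the WT library alone. Sgk1 (1.03) and Klf9 (1.03), both known targets of the glucocorticoid receptor, were LPS-driven as well. Sgk1 had 51.7 and 19.0 FPKM in WT and 61.3 and 47.2 in KO, and Klf9 had 33.0 and 12.9 in WT and 27.0 and 22.4 in KO. For both, the WT library at 3 h was the low one.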
